A study of Mus musculus with 27 samples.

Results

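ATF4 is a transcription factor whose mRNA is translated more when the initiation factor eIF2 is phosphorylated, which happens under amino acid shortage and other stresses in what is called the integrated stress response. It binds composite sites together with C/EBP proteins and turns on genes that make amino acids, carry them into the cell and charge them onto tRNA. In skeletal muscle the pathway is known for its part in muscle wasting and in the response to mitochondrial stress. The genes described here are 39 reported members of this pathway, chosen by symbol: 11 regulators, 11 synthesis enzymes, 7 transporters and 10 cytosolic tRNA synthetases. All 39 were found among the 20446 genes counted, and 38 passed the filter on low counts. The choice goes by symbol and uses no threshold on a value, but the set was drawn up with earlier results of these data known. The remaining one, Cbs, the first enzyme of the pathway from homocysteine to cysteine, had 0 to 6 reads in a library (mean 0.0681 CPM, counts scaled to a common library size) and was not tested.

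All libraries came from C2C12, a mouse myoblast line that forms myotubes in low serum. Myoblasts grown with 10% fetal bovine serum were switched to 2% horse serum to differentiate, and every culture then received 50% horse serum for 2 h, a treatment used to bring the clocks of cultured cells into step. RNA was sampled every 6 h from 12 h to 60 h after the pulse, giving 9 time points of 3 libraries each, labelled replicate 1 to 3. No culture without the pulse is among the samples, and the labels do not say whether replicates were separate cultures, so the p-values measure the spread between these libraries. Depth was 15187400 to 26615773 counts per library. The tests below did not take the replicate number into account unless stated. Below, "adjusted p" is edgeR's quasi-likelihood p after Benjamini-Hochberg adjustment over all 12687 genes tested, a gene is called under 0.05, CPM are scaled by TMM, and log2 fold changes are given with their standard error.

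The myotube label was checked against markers. Sums of markers are CPM of the total counts of a library without TMM scaling, and levels of single markers are with it. The summed level of 10 myotube markers was 14530 to 17820 CPM in every library and 8 markers of dividing myoblasts summed to 748 to 1309 CPM. Reserve cell and satellite cell markers (6 genes) summed to 190 to 288 CPM. Immune and endothelial markers (9 genes) summed to 2.43 to 3.95 CPM and adipocyte markers (5 genes) to at most 0.217 CPM, with Cidec at 0. The highest single-library levels were 1.70 CPM for Cd68, 1.44 for Tek, 1.05 for Itgam, 0.951 for Csf1r and 0.476 for Cdh5. Ptprc, Pecam1, Adgre1 and Kdr were at most at 0.312 CPM in any library.

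The DNA motif that ATF4 and its C/EBP partners are known to bind, TGATGNAA on either strand (TTNCATCA when read on the other), was looked for in the RefSeq promoter windows (GRCm38.p6) that run from 250 bases before to 50 bases after each start. Windows were found for 33 of the 39 genes, and not for Wars, Slc7a5, Aldh1l2, Cth, Cars and Nars. The motif stood in the windows of 13 of the 33 genes (39.4%), against 4.51% of all 27025 genes with a window. The narrower form TGATGCAA, which is contained in the looser one, stood in 9 of 33 (27.3%) against 1.03% of all genes. By class, the looser form TGATGNAA was found in 5 of 7 synthetases, 4 of 11 regulators, 2 of 9 enzymes and 2 of 6 transporters. The genes were Aars, Gars, Iars, Tars, Yars, Atf3, Chac1, Nupr1, Trib3, Asns, Pck2, Slc1a4 and Slc7a11. These are letters found, not measured binding. Of the genes with the motif, Atf3 and Iars were not called at 24 h against 12 h, where 31 of the 38 tested members fell. Genes without it in their windows fell too: Atf4, Atf5, Ddit3, Cebpg, Sesn2, Psat1, Psph, Phgdh, Shmt2, Mthfd2, Mthfd1l, Slc3a2, Sars and Eprs. Cebpb, Ppp1r15a, Slc7a1, Slc38a2 and Slc6a9 also lacked it and were not called. The genes without a window all fell. Whether the motif goes with the fall was not tested. The 6 stretches below are examples from all 4 classes, all taken from genes that fell. They are written 5′ to 3′ on the gene's own strand, with the motif in capitals.
Chac1, chr2:119351009-119351096 (+): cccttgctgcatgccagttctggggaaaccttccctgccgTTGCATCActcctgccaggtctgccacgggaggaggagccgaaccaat
Nupr1, chr7:126625562-126625591 (-): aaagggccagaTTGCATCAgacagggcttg
Asns, chr6:7693214-7693243 (-): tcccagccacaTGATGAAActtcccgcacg
Pck2, chr14:55540123-55540210 (+): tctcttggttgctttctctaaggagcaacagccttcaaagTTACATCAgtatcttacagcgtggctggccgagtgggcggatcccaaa
Slc7a11, chr3:50443642-50443690 (-): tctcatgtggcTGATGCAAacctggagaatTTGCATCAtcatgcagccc
Gars, chr6:55037931-55038000 (+): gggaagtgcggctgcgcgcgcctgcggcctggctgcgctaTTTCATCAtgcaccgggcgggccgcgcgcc
With the base just before the start as position -1, the first capital lies at -193 in Chac1, -110 in Nupr1, -23 in Asns, -103 in Pck2 and -30 in Gars. Slc7a11 carried the motif in both orientations, from -66 and from -47. The Asns copy is of the looser form only (TGATGAAA), as are those of Pck2 and Gars.

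Levels were divided by the merged length of all annotated exons of a gene, which can exceed that of 1 mRNA. Per kilobase of exon, Atf4 mRNA itself was the most abundant of the 39 (mean over all libraries 156 CPM per kb), followed by Gars (126), Nars (93.3) and Asns (67.5). The serine enzyme Psat1 (63.4), the glutamine transporter Slc38a2 (58.99) and Atf5 (56.1) came next on that scale. At the low end, above Cbs at 0.00910, were Slc7a11 (0.935), Atf3 (3.50), the glycine transporter Slc6a9 (4.75), Slc7a1 (5.89) and Cth (6.45). By mean CPM, not divided by exon length, Eprs (530), Slc38a2 (521), Nars (406) and Gars (394) stood above Atf4 (367). The smallest count of a tested member in any library was 88 reads, for Atf3, and the counts of Cth and Slc7a11 went down to 96 and 98.

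Most of the pathway was highest in the first sample and lowest 12 to 18 h later. Of the 38 tested members, 30 had their highest mean at 12 h, and 21 had their lowest mean at 24 h and 12 at 30 h. Of the 38, 31 changed somewhere over the course, where 18.4% of all genes did, and 31 fell at 24 h against 12 h, where 5.58% of all genes fell and 11.4% changed in either direction. No member rose in that comparison, where 5.8% of all genes did. In 34 of the 38, all 3 libraries of 24 h lay below all 3 of 12 h, as they did in 12.2% of all genes; Atf3, Cebpb, Slc7a1 and Slc38a2 overlapped. The median log2 fold change at 24 h against 12 h was -0.70 over the members and 0.01 over all genes. In bulk RNA, fewer cells of a type and less RNA per cell cannot be told apart, so these are levels per culture.

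**Figure D1:**
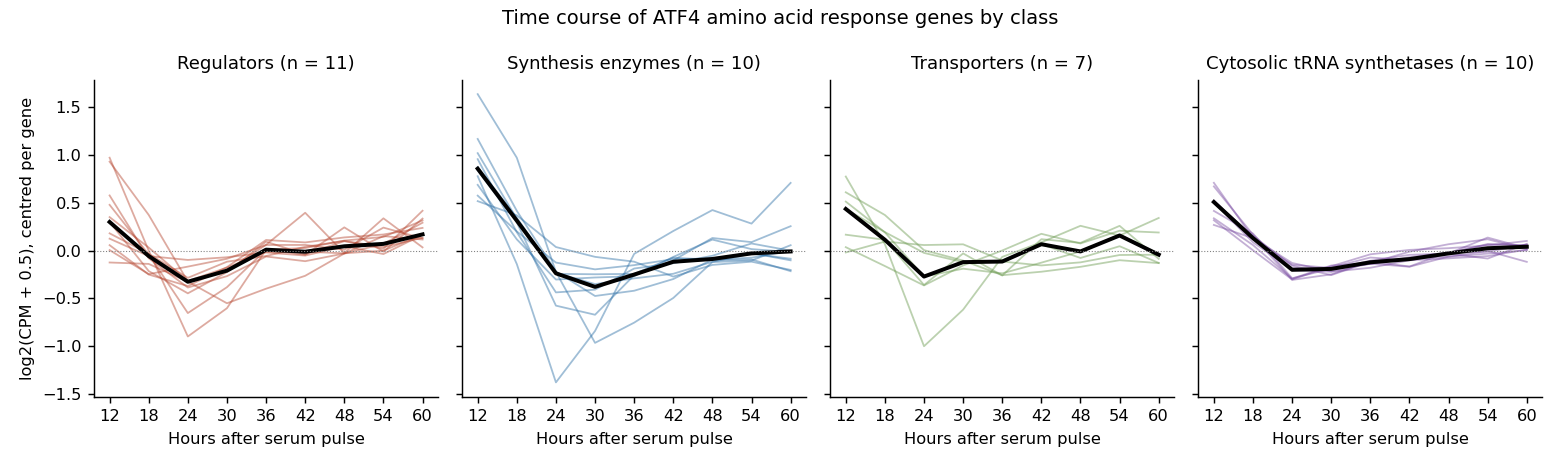
Mean log2(CPM + 0.5) at each time after the serum pulse (hours), centred on each gene's own mean; thin lines are genes, 1 panel per class, and the black line is the class median. The medians at 12, 24 and 60 h were 0.303, -0.345 and 0.172 in regulators, 0.861, -0.239 and -0.00909 in enzymes, 0.436, -0.276 and -0.043 in transporters and 0.508, -0.201 and 0.0402 in synthetases.

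Among the regulators, 8 of 11 fell at 24 h against 12 h (median log2 fold change -0.69) and 8 of 11 changed over the course. Atf4 (chr15:80255184-80257541, GRCm38) had 373, 383 and 379.5 CPM at 12 h, 301, 288 and 330.1 at 18 h, 271, 292 and 281 at 24 h, 338, 307 and 323 at 30 h, 376, 417 and 387 at 36 h, 396, 406 and 399 at 48 h and 442, 432 and 413 at 60 h. Its mean was lowest at 24 h, where all libraries lay below every library of 12 h, and highest at 60 h. Atf4 had a log2 fold change of -0.43 ± 0.06, adjusted p 2.42e-05 at 24 h against 12 h, and 0.51 ± 0.06, adjusted p 1.28e-05 at 48 h against 24 h. At 60 h against 12 h Atf4 was the only member that rose, by 0.18 ± 0.06, adjusted p 0.0454. That last call sat near the threshold: leaving out any of 13 single libraries raised the adjusted p to between 0.0502 and 0.173, among them each library of 12 h and of 60 h.

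Trib3, a pseudokinase that ATF4 induces and that binds ATF4 in return, showed the largest change of the regulators. It had 35.5, 43.5 and 42.4 CPM at 12 h, 17.2, 18.6 and 26.2 at 18 h, 8.67, 13.8 and 10.1 at 24 h, 13.8, 13.6 and 12.3 at 30 h, 18.3, 23.8 and 19.7 at 36 h, 23.9, 25.2 and 23.3 at 48 h and 28.5, 24.8 and 24.1 at 60 h. Each 24 h library was below every library of the other time points listed except 30 h, where the ranges overlapped. The log2 fold change of Trib3 was -1.90 ± 0.15, adjusted p 5.18e-09 at 24 h against 12 h and 1.16 ± 0.15, adjusted p 4.23e-05 at 48 h against 24 h. At 60 h against 12 h it was also lower, with a log2 fold change of -0.65 ± 0.14, adjusted p 0.00247.

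Atf5, an ATF4 relative that also marks mitochondrial stress, had 191, 173 and 244 CPM at 12 h, 79.97, 75.6 and 97.5 at 24 h, 61.6, 76.8 and 107 at 36 h, 97.1, 88.9 and 126 at 48 h and 127, 96.7 and 121 at 60 h. The 12 h libraries were all above every later one listed, and the log2 fold change of Atf5 was -1.26 ± 0.22, adjusted p 0.000267 at 24 h and -0.82 ± 0.21, adjusted p 0.00968 at 60 h, both against 12 h. The 60 h call of Atf5 was lost without the 12 h library of replicate 3 (adjusted p 0.0563) or the 60 h library of replicate 2 (0.058). Ddit3, which encodes the pro-apoptotic factor CHOP, took another course, with 34.6, 40.1 and 30.5 CPM at 12 h, 19.4, 25.2 and 17.8 at 24 h, 28.05, 33.9 and 28.8 at 36 h, 28.9, 34.7 and 27.6 at 48 h and 39.1, 38.8 and 35.7 at 60 h. All Ddit3 libraries of 24 h lay below those of 12 h, and the 60 h libraries reached the 12 h range. Ddit3 had a log2 fold change of -0.75 ± 0.13, adjusted p 0.00029 at 24 h, and 0.11 ± 0.13, adjusted p 0.663 at 60 h, against 12 h.

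The other regulators that fell at 24 h against 12 h were Chac1, which breaks down glutathione (-1.17 ± 0.20, adjusted p 0.000192), the small stress protein Nupr1 (-0.96 ± 0.14, adjusted p 4.99e-05), Sesn2, a leucine sensor that restrains mTORC1 (-0.69 ± 0.15, adjusted p 0.00275), and Cebpg, a dimer partner of ATF4 (-0.47 ± 0.08, adjusted p 0.00036). Sesn2 did not pass the test for any change over the 9 time points (adjusted p 0.0584), but did with the replicate number in the fit (0.000524). The 3 regulators not called at 24 h were Ppp1r15a, the GADD34 subunit that dephosphorylates eIF2 (-0.22 ± 0.09, adjusted p 0.114), Atf3 (-0.22 ± 0.17, adjusted p 0.549) and Cebpb, another C/EBP partner (-0.17 ± 0.19, adjusted p 0.696). Without the replicate number in the fit, only Atf3 of these passed the test for any change (adjusted p 0.0158). Atf3 had means of 5.84 ± 0.942 CPM at 24 h and 9.88 ± 0.237 CPM at 42 h, its highest (SD, n = 3 each). The adjusted p for any change was 0.211 for Ppp1r15a and 0.709 for Cebpb. With the replicate number in the fit these were 0.00547 and 0.345.

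**Figure D2:**
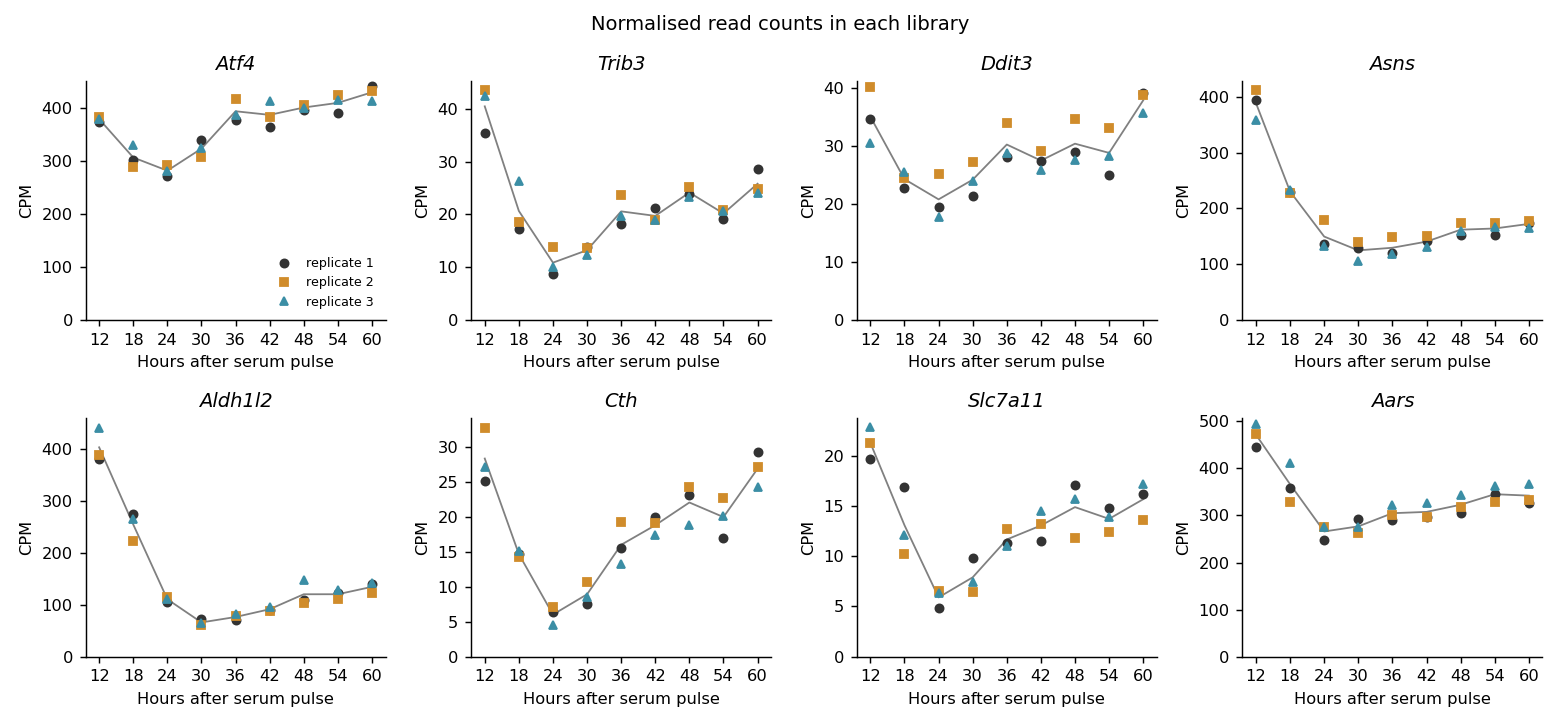
Level in each library (CPM) against hours after the serum pulse for 8 genes; point shape gives the replicate number and the line joins the means. In Atf4 and Ddit3 the 60 h points are back at or above the 12 h range, in Cth they overlap it, and in Asns and Aldh1l2 all 60 h points lie below every 12 h point.

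All 10 tested synthesis enzymes fell at 24 h against 12 h, with a median log2 fold change of -1.31 and a range of -2.23 to -0.48, and all 10 changed over the course. Aldh1l2, a mitochondrial enzyme that oxidises 10-formyl-tetrahydrofolate, had the smallest p of the members for any change (adjusted p 9.9e-14). It had 380.1, 389 and 442 CPM at 12 h, 275, 223 and 266 at 18 h, 106, 115 and 111 at 24 h, 72.3, 60.7 and 65.6 at 30 h, 70.5, 77.8 and 81.8 at 36 h, 109.9, 103 and 148 at 48 h and 139, 123 and 142 at 60 h. Its mean was lowest at 30 h, and every library from 18 h on lay below the 12 h range. The log2 fold change of Aldh1l2 was -1.86 ± 0.11, adjusted p 3.65e-11 at 24 h, -2.40 ± 0.11, adjusted p 4.97e-13 at 36 h and -1.58 ± 0.11, adjusted p 3.5e-10 at 60 h, each against 12 h. Over 14.1% of its exonic length Aldh1l2 overlaps D10Wsu102e on the other strand, and since the strand setting of the counting is not given, reads there may belong to either gene.

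The serine branch moved with it. Psph, the last enzyme of serine synthesis, had 61.98, 72.6 and 63.1 CPM at 12 h, 24.6, 27.1 and 22.7 at 24 h, 30.8, 30.00 and 27.8 at 36 h, 32.3, 33.7 and 31.3 at 48 h and 36.3, 31.7 and 33.1 at 60 h. Every Psph library from 24 h on was below every library of 12 h, and its log2 fold change was -1.41 ± 0.08, adjusted p 1.72e-11 at 24 h and -0.97 ± 0.08, adjusted p 4.38e-09 at 60 h. Psph overlaps an entry annotated as Cct6a on the other strand over 10.4% of its exonic length, where reads may belong to either. The values at 24 h against 12 h were -1.12 ± 0.18, adjusted p 0.000101 for Phgdh, which starts the branch, and -0.70 ± 0.07, adjusted p 9.32e-08 for Psat1, its middle step. Shmt2, which splits serine into glycine and a one-carbon unit in mitochondria, followed with -1.24 ± 0.10, adjusted p 2.22e-09. Of the mitochondrial folate enzymes downstream, Mthfd1l gave -0.996 ± 0.07, adjusted p 2.24e-10 and Mthfd2 -0.48 ± 0.07, adjusted p 6.29e-05. Phgdh averaged 40.99 ± 5.99 CPM at 60 h and 87.6 ± 12.04 CPM at 12 h (SD, n = 3 each), and Shmt2 averaged 137 ± 3.28 CPM at 60 h and 296 ± 9.11 CPM at 12 h.

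Asns, which makes asparagine and is a standard readout of the amino acid response, had 395, 413 and 358 CPM at 12 h, 136, 179 and 133 at 24 h, 121, 149 and 119 at 36 h, 153, 173 and 159 at 48 h and 174, 178 and 164 at 60 h. All Asns libraries from 24 h on were below every library of 12 h. Its log2 fold change was -1.38 ± 0.11, adjusted p 5.42e-09 at 24 h and -1.17 ± 0.11, adjusted p 3.8e-08 at 60 h, both against 12 h. Pck2, the mitochondrial enzyme that makes phosphoenolpyruvate, had 135, 141 and 142 CPM at 12 h, 51.7, 51.9 and 52.3 at 24 h, 60.1, 69.1 and 65.8 at 36 h, 79.7, 87.4 and 88.6 at 48 h and 102, 87.7 and 89.3 at 60 h. Its 24 h libraries were within 1 CPM of each other, and the 60 h libraries lay between the 24 h and the 12 h ranges. Pck2 had a log2 fold change of -1.42 ± 0.08, adjusted p 1.09e-11 at 24 h against 12 h and 0.52 ± 0.08, adjusted p 0.000558 at 60 h against 36 h.

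Cth, which makes cysteine from cystathionine, had the largest fold change at 24 h and did not stay low. It had 25.2, 32.8 and 27.2 CPM at 12 h, 14.8, 14.2 and 15.1 at 18 h, 6.36, 7.19 and 4.59 at 24 h, 7.54, 10.7 and 8.61 at 30 h, 15.5, 19.3 and 13.3 at 36 h, 23.1, 24.3 and 18.9 at 48 h and 29.3, 27.2 and 24.3 at 60 h. Its log2 fold change was -2.23 ± 0.17, adjusted p 1.51e-09 at 24 h against 12 h, 1.87 ± 0.17, adjusted p 2.45e-07 at 48 h against 24 h, and -0.07 ± 0.15, adjusted p 0.826 at 60 h against 12 h. Cth was the only enzyme not called at 60 h against 12 h.

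Of the 7 transporters, 4 fell at 24 h against 12 h (median log2 fold change -0.55) and the same 4 changed over the course. Slc7a11, the light chain of the cystine-glutamate exchanger, had 19.7, 21.2 and 22.9 CPM at 12 h, 4.83, 6.52 and 6.36 at 24 h, 11.3, 12.7 and 11.02 at 36 h, 17.1, 11.8 and 15.7 at 48 h and 16.2, 13.6 and 17.1 at 60 h. Its 24 h libraries were all below those of 12 h, with a log2 fold change of -1.85 ± 0.18, adjusted p 1.03e-07, and its value at 48 h against 24 h was 1.34 ± 0.18, adjusted p 5.49e-05. Slc7a5, the light chain of the large neutral amino acid transporter, had 260.2, 239.9 and 312 CPM at 12 h, 162, 176 and 194 at 24 h, 139.5, 143 and 160.4 at 36 h, 161, 138 and 174 at 48 h and 174, 145 and 165 at 60 h. All its libraries from 24 h on were below every library of 12 h, and its log2 fold change was -0.61 ± 0.12, adjusted p 0.00116 at 24 h and -0.75 ± 0.12, adjusted p 9.81e-05 at 60 h. Slc3a2, the heavy chain that pairs with both light chains, had 217, 196 and 250.4 CPM at 12 h, 155, 154 and 171 at 24 h, 143, 141 and 166 at 36 h, 150.2, 127 and 173 at 48 h and 157, 144 and 174 at 60 h. Its log2 fold change was -0.47 ± 0.13, adjusted p 0.0206 at 24 h, a call that was lost (adjusted p 0.0722 to 0.109) without the 12 h library of replicate 3 or the 24 h library of replicate 1 or 2. The any-change call of Slc3a2 was lost without the 12 h library of replicate 1 (0.0554) or 3 (0.101), and its 60 h call without the 12 h library of replicate 3 or the 60 h library of replicate 2 (0.0718 to 0.0734).

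Slc1a4, a carrier of alanine, serine and cysteine, had 61.6, 60.04 and 70.3 CPM at 12 h, 52.6, 41.2 and 51.9 at 24 h, 58.9, 61.4 and 66.9 at 36 h, 64.2, 59.5 and 73.9 at 48 h and 78.3, 63.9 and 71.7 at 60 h. Its 24 h libraries were its lowest of those listed, and those of 60 h overlapped or exceeded the 12 h range. The log2 fold change of Slc1a4 was -0.40 ± 0.12, adjusted p 0.0386 at 24 h against 12 h, and this call was lost without any one of 5 libraries, all 3 of 12 h and those of replicates 2 and 3 at 24 h (0.0549 to 0.191). The other 3 transporters differed by fit. With the replicate number in the fit, Slc6a9 and Slc38a2 were called for any change (adjusted p 0.00464 and 0.00158), and Slc7a1 was not (0.0784). Without it, the 3 passed neither test. At 24 h against 12 h, the glycine transporter Slc6a9 gave -0.85 ± 0.31, adjusted p 0.0814, the arginine and lysine transporter Slc7a1 gave -0.55 ± 0.26, adjusted p 0.228, and Slc38a2, which carries small neutral amino acids and is another standard target of ATF4, gave 0.08 ± 0.10, adjusted p 0.753.

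Of the 10 cytosolic synthetases, 9 fell at 24 h against 12 h, within a narrow range: from -0.88 in Nars to -0.62 in Tars, with -0.46 in Iars, the one not called. The class median was -0.69. Nars, which charges asparagine, had 638, 686 and 583 CPM at 12 h, 335, 389 and 316 at 24 h, 354, 382 and 322 at 36 h, 365, 396 and 369.8 at 48 h and 410.5, 409 and 386 at 60 h. Aars, for alanine, had 445, 473 and 495 CPM at 12 h, 248, 275 and 275 at 24 h, 291, 301 and 321 at 36 h, 305, 319 and 344 at 48 h and 326, 333 and 366 at 60 h. In both genes all 24 h libraries lay below all 12 h libraries, and later libraries stayed below the 12 h range. The log2 fold change at 24 h was -0.88 ± 0.08, adjusted p 4.25e-08 for Nars and -0.83 ± 0.08, adjusted p 8.05e-08 for Aars. Eprs, which charges glutamate and proline, had 732, 809.7 and 696 CPM at 12 h, 444, 499.9 and 432 at 24 h, 494, 541 and 463 at 36 h, 507, 529.8 and 501 at 48 h and 563, 558 and 530.1 at 60 h. Gars, for glycine, had 561, 591 and 528 CPM at 12 h, 338, 397 and 322 at 24 h, 354, 375 and 332 at 36 h, 373, 385 and 359 at 48 h and 387, 395 and 387 at 60 h. Here too no later library listed reached the 12 h range, and the log2 fold change at 24 h was -0.70 ± 0.07, adjusted p 1.97e-07 for Eprs and -0.67 ± 0.08, adjusted p 1.02e-06 for Gars. The others gave -0.85 ± 0.10, adjusted p 3.39e-06 for Wars (tryptophan), -0.70 ± 0.10, adjusted p 1.56e-05 for Cars (cysteine), -0.66 ± 0.11, adjusted p 0.000245 for Sars (serine), -0.63 ± 0.08, adjusted p 2.84e-06 for Yars (tyrosine) and -0.62 ± 0.08, adjusted p 5.33e-06 for Tars (threonine). Iars, for isoleucine, gave -0.46 ± 0.16, adjusted p 0.0691. Aars shares 14.3% of its exonic length with Exosc6 on its own strand, where reads may have been assigned to either or neither.

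The wide spread of several members followed the replicate number. Averaged over the 9 time points, Slc6a9 stood at 25.6, 17.9 and 29.6 CPM in replicates 1, 2 and 3, Slc7a1 at 68.9, 54.3 and 80.6 CPM, and Iars at 90.3, 77.3 and 99.7 CPM. Replicate 2 was lowest in all 3 genes, and also in Atf5 and Chac1. Other members went the other way. Phgdh, with a wider range between numbers than Iars, stood at 49.4, 55.97 and 42.8 CPM. Nupr1, Cth, Ddit3, Sars and Asns were also highest in replicate 2. Within all 3 numbers, 24 h was below 12 h for 37 of 38 members and for 27.2% of all genes. Slc6a9, Slc7a1 and Iars were among the 37. Slc38a2 was the one with 24 h above 12 h in all 3. Slc6a9 also overlaps Ccdc24 on the other strand over 27.8% of its exonic length, and Cebpb overlaps Tmem189 over 20.7%.

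**Figure D3:**
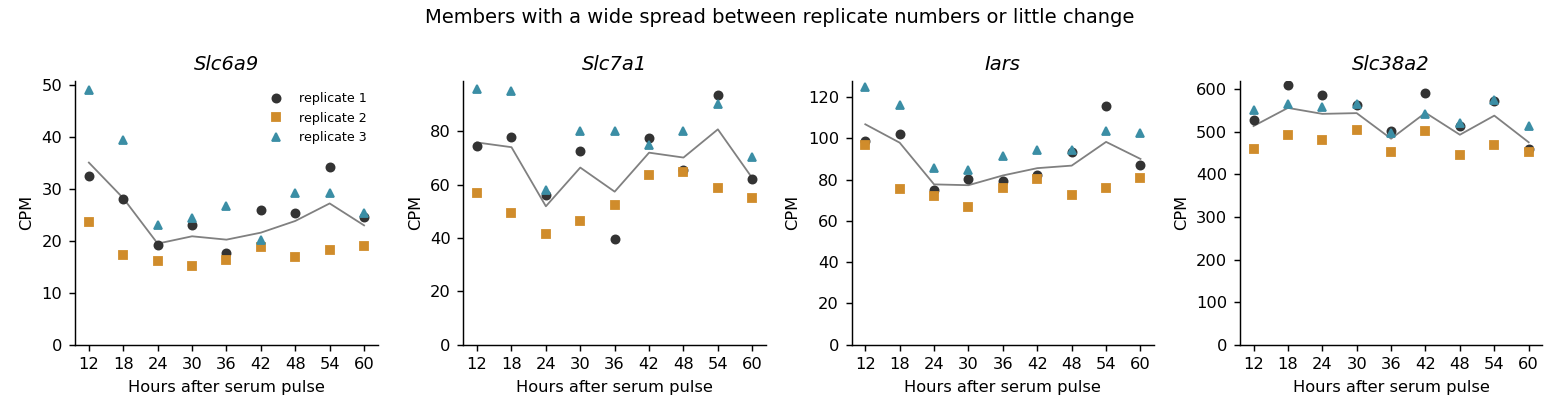
Level in each library (CPM) against hours after the serum pulse for 4 members, with replicate number as point shape and the line through the means. None was called for any change without the replicate number in the fit. With it, Slc6a9, Iars and Slc38a2 were called (adjusted p 0.00464, 0.000402 and 0.00158). Replicate 2 (squares) runs lowest at most times in Slc6a9, Slc7a1 and Iars, with means of 17.9, 54.3 and 77.3 CPM, and in Slc38a2 the points show no drop at 24 h.

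The drop was under way at 18 h. At 18 h against 12 h, a comparison added after the data had been seen, 20 of 38 members fell and none rose, where 2.3% of all genes fell and 2.78% rose (5.08% in either direction). They were 4 regulators (Atf4, Ddit3, Trib3, Nupr1), 8 enzymes (all tested but Phgdh and Mthfd2), the transporter Slc7a11, and 7 synthetases (all but Sars, Iars and Cars). The log2 fold change at 18 h was -0.97 ± 0.15, adjusted p 0.000128 for Trib3, -0.95 ± 0.16, adjusted p 0.000341 for Cth, -0.77 ± 0.08, adjusted p 1.12e-06 for Psph and -0.58 ± 0.10, adjusted p 0.000868 for Wars. For Ddit3, Slc7a11, Tars and Yars, and for Nupr1, the 18 h call was lost on leaving out single libraries (2, 3, 2, 4 and 1 of them), with adjusted p of 0.0564 to 0.15.

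The same clock interval 1 day later gave no such drop. At 48 h against 36 h no member fell and 3 rose, where 0.0631% of all genes fell and 0.102% rose: Aldh1l2 (0.65 ± 0.11, adjusted p 0.00857), Mthfd1l (0.38 ± 0.07, adjusted p 0.00894) and Pck2 (0.39 ± 0.08, adjusted p 0.0329). All 3 are mitochondrial enzymes, and all 3 calls were lost without the 36 h library of replicate 1. Without the 48 h library of replicate 3 only 1 was kept. With the replicate number in the fit 5 members rose and none fell: Asns, Mthfd1l, Aldh1l2, Cth and Pck2. Tested directly, the 24 h against 12 h difference was lower than the 48 h against 36 h difference in 28 of 38 members and higher in none, where it was lower in 3.59% and higher in 3.9% of all genes (7.5% in either direction). These were all 10 enzymes, 9 of 10 synthetases, 7 of 11 regulators, and Slc7a11 and Slc7a5. The difference between the days was -2.69 ± 0.23, adjusted p 2.55e-08 for Cth, -2.52 ± 0.16, adjusted p 2.23e-10 for Aldh1l2, -2.21 ± 0.25, adjusted p 1.88e-06 for Slc7a11 and -2.13 ± 0.21, adjusted p 2.93e-07 for Trib3 on the log2 scale. It was -0.66 ± 0.21, adjusted p 0.0608 for Sesn2 and 0.05 ± 0.14, adjusted p 0.936 for Slc38a2, neither called.

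A wave of 24 h was tested beside a linear trend, since the pulse is used to align clocks. None of the 38 members was called (0.0552% of all genes were), by edgeR or by DESeq2; 18 had an unadjusted p under 0.05 with either tool, as 4.49% of all genes did in edgeR. The smallest p was that of Ddit3 (0.000683, adjusted p 0.502), followed by Atf4 (0.00177, adjusted p 0.58). Leaving out the 48 h library of replicate 2 brought Ddit3 past the threshold. Levels that alternate between neighbouring 6 h samples were also tested. No member was called there by either tool, where 1.79% of all genes were (1.11% with one sign and 0.678% with the other), with 4 of 38 members and 10.6% of all genes under an unadjusted p of 0.05 in edgeR, and 5 members in DESeq2. These fits leave out the replicate number. With it in the edgeR fit, 2 members were called for alternation, Ddit3 and Slc38a2.

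Later samples differed between the classes in how many members stayed below 12 h, a difference that was not itself tested. At 36 h against 12 h 25 of 38 fell and none rose, where 6.72% of all genes fell and 9.27% rose. They were 10 of 10 enzymes, 9 of 10 synthetases, 3 of 11 regulators (Atf5, Trib3, Nupr1) and 3 of 7 transporters (Slc7a11, Slc7a5, Slc3a2). Atf4 stood at 0.06 ± 0.06 and Ddit3 at -0.21 ± 0.13, neither called. At 60 h against 12 h 21 fell, where 6.54% of all genes did, and 1 rose, Atf4, where 9.48% did. The 21 were 9 enzymes, 8 synthetases, Atf5, Trib3, Slc7a5 and Slc3a2. The class medians of the log2 fold change were -0.85 in enzymes, -0.44 in synthetases, -0.44 in transporters and -0.05 in regulators, and -0.01 over all genes. Mthfd2, at -0.72 ± 0.07, adjusted p 1.51e-07, had its lowest mean at 42 h, later than the other enzymes. All comparisons against 12 h share the same 3 libraries and are therefore not independent of each other.

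**Figure D4:**
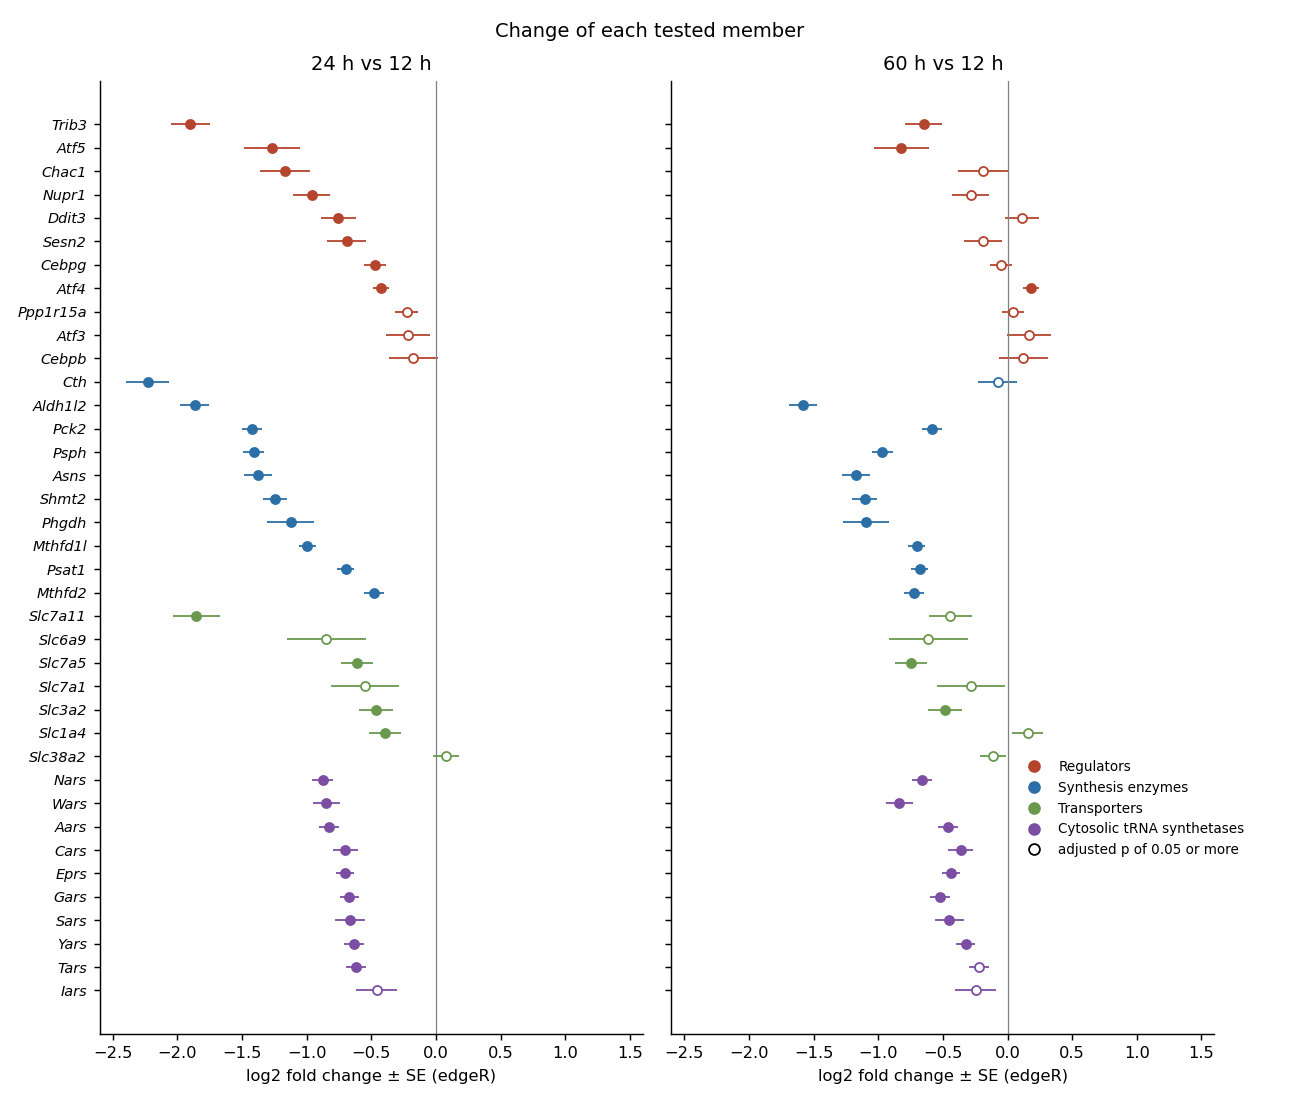
Log2 fold change (± SE, edgeR) of the 38 tested members at 24 h against 12 h (left) and 60 h against 12 h (right), coloured by class; open circles have an adjusted p of 0.05 or more. On the left 31 circles are filled, all below 0; on the right 22 are, 21 below 0, and most regulators lie near 0 (median -0.05).

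Between 36 h and 60 h the called changes were few in the fit without the replicate number. At 60 h against 36 h 3 enzymes rose and no member fell, where 0.504% of all genes rose and 0.37% fell (0.875% in either direction): Aldh1l2 (0.81 ± 0.11, adjusted p 0.000236), Pck2 (0.52 ± 0.08, adjusted p 0.000558) and Cth (0.75 ± 0.15, adjusted p 0.0176). The call of Cth was lost without any one of 4 libraries (adjusted p 0.06 to 0.115), those of replicates 1 and 3 at 36 h and of replicates 1 and 2 at 60 h. With the replicate number in the fit 9 members rose and none fell: Atf5, Ddit3, Nupr1, Asns, Mthfd1l, Aldh1l2, Cth, Pck2 and Nars. Calls over all genes were not counted in that fit. DESeq2, without the replicate number, called 5 members and 184 of all genes, where edgeR called 111 of all genes. The median over the members was 0.18 and over all genes 0.00091, and within each replicate number 28 of 38 were higher at 60 h in all 3 numbers, as were 16.3% of all genes. At 48 h against 24 h, a comparison also added after the data had been seen, 14 of 38 rose and none fell, where 2.7% of all genes rose and 1.21% fell (3.92% in either direction). They were Atf4, Ddit3, Trib3, Cebpg and Chac1, the enzymes Psph, Mthfd1l, Cth and Pck2, the transporters Slc7a11 and Slc1a4, and the synthetases Aars, Yars and Tars. Without the 24 h library of replicate 1 that count was 9. The calls of Slc1a4 (0.44 ± 0.12, adjusted p 0.0469) and Aars (0.28 ± 0.08, adjusted p 0.0443) sat near the threshold and were lost without any one of 22 and 16 libraries (adjusted p up to 0.271 and 0.217).

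Related genes outside the 39 are given by the same counts, to be read against the 5.58% of all genes that fell at 24 h against 12 h and the 5.8% that rose. Of the 10 other cytosolic synthetases, 5 fell at 24 h against 12 h (median log2 fold change -0.26), led by Lars for leucine (-0.90 ± 0.06, adjusted p 4.86e-10), Mars for methionine (-0.56 ± 0.06, adjusted p 1.27e-06) and Vars for valine (-0.56 ± 0.11, adjusted p 0.000863). Of 17 mitochondrial synthetases 1 fell, Tars2 (-0.34 ± 0.09, adjusted p 0.0127), a share near that of all genes, with a list median of -0.16. Rars2 gave -0.34 ± 0.11, not called. Of 13 other reported ATF4 targets 8 fell (median -0.63): they include Vldlr, a lipoprotein receptor (-1.96 ± 0.14, adjusted p 1.04e-09), the tRNA exporter Xpot (-0.63 ± 0.06, adjusted p 1.09e-07) and Fgf21, a hormone released by stressed muscle (-0.73 ± 0.22, adjusted p 0.0327). Fgf21 was lower still at 60 h against 12 h (-2.76 ± 0.24, adjusted p 1.74e-08). Of 12 cytosolic and other one-carbon enzymes 5 fell (median -0.24), among them Shmt1 (-1.24 ± 0.15, adjusted p 2.53e-06), the cytosolic counterpart of Shmt2, Mthfd1 (-0.52 ± 0.08, adjusted p 0.000115) and Atic of purine synthesis (-0.40 ± 0.06, adjusted p 5.34e-05).

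The upstream kinases and neighbouring systems are set against the same background, 5.58% of all genes falling and 5.8% rising at 24 h against 12 h. Of 16 eIF2 kinases and eIF2 factors 2 fell and 1 rose at 24 h against 12 h (median -0.09): the double-stranded RNA sensor Eif2ak2 (-0.65 ± 0.10, adjusted p 8.79e-05) and Eif2s2 (-0.46 ± 0.10) fell, and the uncharged tRNA sensor Eif2ak4, known as GCN2, rose (0.21 ± 0.06, adjusted p 0.0348). Eif2ak3, known as PERK, was higher at 60 h against 12 h (0.32 ± 0.07, adjusted p 0.00119). Of 18 ER chaperones and ER stress targets 1 rose, Calr (0.25 ± 0.06, adjusted p 0.00723), and 1 fell, Hyou1 (-0.21 ± 0.06, adjusted p 0.0381), shares near those of all genes, around a median of 0.01, and 4 rose at 60 h against 12 h, where 9.48% of all genes did, among them Xbp1 (0.30 ± 0.07, adjusted p 0.0068) and Edem1 (0.26 ± 0.07, adjusted p 0.0159). Of 12 other amino acid transporters tested 4 rose and 1 fell at 24 h (median 0.11). Those that rose included the arginine transporter Slc7a2 (1.33 ± 0.17, adjusted p 4.03e-06), the glutamate transporter Slc1a3 (1.18 ± 0.11, adjusted p 2.8e-08) and Slc36a4 (0.25 ± 0.07, adjusted p 0.0172). Of 15 genes of amino acid sensing by mTORC1 2 rose, Sesn1 (0.43 ± 0.10, adjusted p 0.00649) and Sesn3 (0.80 ± 0.21, adjusted p 0.0145), and none fell. Flcn and Rragc of that list stood at 0.21 ± 0.07 and 0.14 ± 0.08, neither called.

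**Figure D5:**
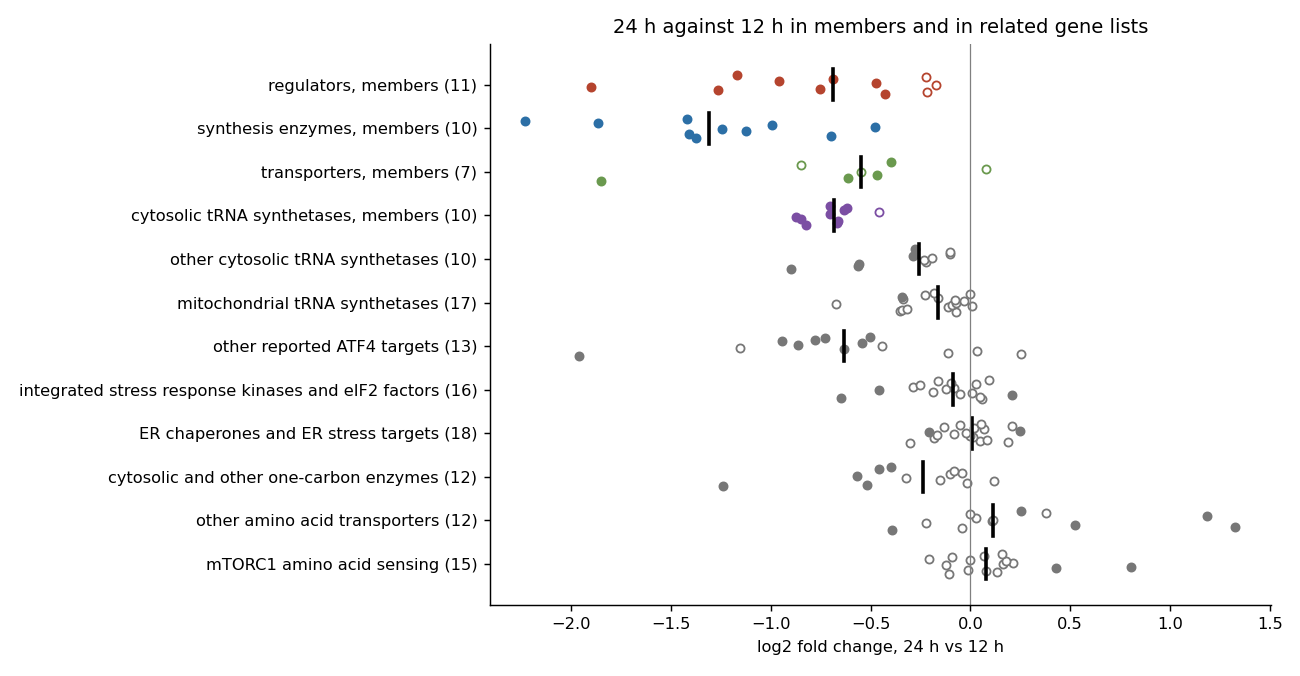
Log2 fold change at 24 h against 12 h of each tested gene in the 4 classes of members (coloured) and in 8 related lists (grey); the number of genes is in parentheses, open circles were not called and the black bar is the list's median. The bars of the members stand at -0.69, -1.31, -0.55 and -0.69, and those of the other lists between -0.63 and 0.11.

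Cell cycle markers moved over the same hours. At 18 h against 12 h 6 of 8 markers of dividing myoblasts rose, where 2.78% of all genes did, and at 24 h against 12 h 3 did, where 5.8% of all genes did, Plk1 (0.67 ± 0.11, adjusted p 0.000147), Ccnb1 and Ccna2 (0.32 ± 0.07, adjusted p 0.00495). Their summed level, without TMM scaling, was 747.6 to 833.5 CPM at 12 h, 948.5 to 1309 CPM at 18 h and 802.0 to 872.8 CPM at 24 h. None of 10 myotube markers was called at 24 h against 12 h (2 under an unadjusted p of 0.05), and Myog (-0.82 ± 0.08, adjusted p 2.58e-08) and Mymx (-1.31 ± 0.09, adjusted p 4.36e-10) fell by 60 h. Of 5 tested markers of reserve cells Cd34 fell at 24 h (-0.70 ± 0.09, adjusted p 7.64e-06). The part of these shifts in the results above was not tested.

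Genes outside all lists were ranked by likeness to the mean of the members, over the 9 time point means. Only protein-coding genes called for any change, with a mean of at least 1 CPM, were ranked, and predicted genes were left out. The 7 most alike were Glce (Pearson r 0.989), Sardh (0.988), Acsbg1 (0.984), Ank2 (0.969), Apobr (0.969), Irgm1 (0.965) and Ints11 (0.965). These r describe means from the same 27 libraries and carry no test. Glce, a heparan sulphate epimerase, averaged 191 ± 10.6 CPM at 12 h, 97.6 ± 4.41 CPM at 24 h, and its 60 h mean was 130.3 ± 3.74 CPM (SD, n = 3 each). Sardh, a mitochondrial enzyme that passes a one-carbon unit from sarcosine to folate, averaged 83.8 ± 7.44 CPM at 12 h, 55.4 ± 4.07 CPM at 24 h, and its 60 h mean was 66.03 ± 4.20 CPM. Among the members themselves the likeness to their mean, which includes each of them, ran from 0.994 in Aars and 0.984 in Psph down to 0.42 in Atf4, 0.147 in Atf3 and -0.209 in Slc38a2.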

How the data were processed

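The deposited table holds 20446 genes by 27 libraries, and its values are raw counts, that is, whole numbers of reads that the authors did not normalize. The submitters' processing notes name Trim Galore 0.4.0, cutadapt 1.9.1, featureCounts and the mm10 build. Per the labels' protocols, ribosomal RNA was removed from total RNA and the library kit was stranded. Aligner, gene annotation and strand setting of the counting were not given in the sources used here.

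Ensembl IDs were given symbols from GENCODE M21, which matched 20327 genes and all 39 members. Genes passed edgeR's filterByExpr at a minimum count of 10 (12687 kept, 7759 left out, 3717 of them without a read). Libraries were scaled by TMM (factors 0.979 to 1.03). The members and lists were chosen with earlier results of these data known. Tests were edgeR 4.0.16 quasi-likelihood tests in R 4.3.3 on all 27 libraries, with the time point as a factor, or with a 24 h wave and a linear term. The biological coefficient of variation was 11.8%. DESeq2 1.42.0, other scaling and filters, other periods, the replicate number as a block and each library left out were alternatives, and the scripts were tested on simulated data. The named genes were, per class, the 4 with the smallest p for any change, per other list the 3 with the smallest p, and the 8 most alike genes, with other members given by value. A few items that this rule names are not reported here. Eif2s2, Hyou1, Sesn3 and Ccnb1 were named after their values were seen. Figures used matplotlib 3.10.9.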

Additional observations from a re-analysis of the deposited data

Results flagged for a closer look

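The 24 h against 12 h difference was set against the 48 h against 36 h difference in the same fit, and 28 members were picked out because the test of that difference was past the threshold (edgeR adjusted p 1.2e-10 to 0.0111). In all 28 the value is below 0, which means that the first-day difference was the lower of the pair. In the regulators the difference of the log2 fold changes was -2.13 for Trib3, -1.61 for Atf5, -1.27 for Chac1, -0.99 for Nupr1, -0.76 for Ddit3, -0.62 for Cebpg and -0.45 for Atf4. In the enzymes it was -2.69 for Cth, -2.52 for Aldh1l2, -1.81 for Pck2, -1.70 for Asns, -1.54 for Psph, -1.42 for Shmt2, -1.38 for Mthfd1l, -1.28 for Phgdh, -0.77 for Psat1 and -0.44 for Mthfd2. In the transporters it was -2.21 for Slc7a11 and -0.70 for Slc7a5. In the synthetases it was -0.97 for Nars, -0.92 for Wars, -0.91 for Aars, -0.83 for Yars, -0.82 for Cars, -0.76 for Sars, -0.74 for Gars, -0.74 for Eprs and -0.68 for Tars. The first-day differences all rest on the same 3 libraries of 12 h, the time at which each of these members except Atf4 and Ddit3 had its highest mean.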

How the results depend on the processing

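Counts of called members stayed within 1.5 times of the reported ones under the other scaling, filters and periods tried. DESeq2 called 5 at 60 h against 36 h, where it called 184 of all genes and edgeR 111. Calls over all genes were counted only in the reported edgeR fit and in DESeq2. The counts of members under the other alternatives therefore stand without a share of all genes. With the replicate block, 5 were called at 48 h against 36 h, 9 at 60 h against 36 h and 2 for alternation (Ddit3 and Slc38a2). The same block called 35 at 24 h against 12 h and 36 for any change, the 5 added for any change being Sesn2 (adjusted p 0.000524), Ppp1r15a (0.00547), Slc38a2 (0.00158), Slc6a9 (0.00464) and Iars (0.000402). At an adjusted p under 0.01, 9 were called at 48 h against 24 h. The replicate numbers were not counted as pairing, though 26 of 27 libraries were closest to their own number. For this check the mean of each time point was subtracted from each gene's log2 CPM, and only libraries of different time points were compared. What was left correlated at -0.0558 to 0.692 between libraries of the same number (median 0.331, over 0.1 in 91 of 108 pairs). Between libraries of different numbers it correlated at -0.649 to 0.452 (median -0.19, over 0.1 in 37 of 216 pairs). Because the mean is subtracted, positive values for the same number go with negative ones for different numbers. The replicate numbers thus carry a shared spread, which the tests without the block leave in the error.

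Leaving out single libraries or whole replicate numbers gave 20 to 32 members for any change, 23 to 33 at 24 h against 12 h, 0 to 3 at 48 h against 36 h, 17 to 30 for the difference between the days, 23 to 27 at 36 h against 12 h, 0 to 4 at 60 h against 36 h, 16 to 23 at 60 h against 12 h, 0 to 1 for the wave, 0 to 0 for alternation, 9 to 21 at 18 h against 12 h and 6 to 14 at 48 h against 24 h. The lowest counts for any change, the days, 18 h and 48 h against 24 h came without replicate 1. Of the calls for single members, 63 were lost without replicate 1, 12 without replicate 2 and 35 without replicate 3. Each of these fits leaves out equally many libraries, and the reason for the difference was not tested. Of 6662 values for single members under an alternative, 6411 kept direction and side of the threshold, 237 lost the call, 14 gained it and 0 changed sign. These values cover every tested member for any change, but only the members already called for the other tests. Calls gained in those other tests are therefore not among the 14. The value for any change is a range without a sign, so only the other tests could show a change of sign. Atf3, Cth and Slc7a11, with as few as 88, 96 and 98 reads in a library, had the lowest counts of the tested members and so the widest counting error.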
